A study of Caenorhabditis elegans with 51 samples.

Results

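In all, 10 genes of the insulin/IGF-1 signaling pathway of *C. elegans* were followed at the transcript level in 8 mutant strains, each compared with wild-type worms of its own experiment. They were chosen by symbol: *daf-2*, *ist-1*, *age-1*, *daf-18*, *pdk-1*, *akt-1*, *akt-2*, *sgk-1*, *daf-16* and *pqm-1*. All 10 were found among the 14033 genes of the larger experiment and among the 14596 genes of the *sod-2* experiment, and all had passed the filter that the authors applied to both tables.

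The larger experiment holds 39 libraries of whole, pre-fertile young adult worms, with 6 each from wild type (N2, replicates 7 to 12), *daf-2(e1370)*, *nuo-6(qm200)*, *clk-1(qm30)* and *isp-1(qm150)*, and 3 each from *prdx-2*, *sod-1* and a group labelled *ctl-1*. A separate experiment compared 6 *sod-2(ok1030)* libraries with 6 wild-type libraries (replicates 1 to 6), each library from 1 biological replicate, and every group was grown untreated on OP50 bacteria on NGM plates at 20 °C. The mutations in *nuo-6*, *isp-1* and *clk-1* impair mitochondrial respiration (complex I, complex III and ubiquinone synthesis), *daf-2(e1370)* is a missense allele of the insulin/IGF-1 receptor, and *sod-1*, *sod-2* and *prdx-2* encode 2 superoxide dismutases and a peroxiredoxin. The alleles of the *sod-1*, *ctl-1* and *prdx-2* strains are not given in the sources used here.

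In this pathway, ligand binding to the receptor DAF-2 activates the lipid kinase AGE-1, whose product recruits PDK-1, AKT-1 and AKT-2 to the membrane, and the phosphatase DAF-18 removes that product. The AKT kinases phosphorylate the FOXO transcription factor DAF-16 and hold it in the cytoplasm, so that weak signaling lets DAF-16 enter the nucleus and extends lifespan. Most of this regulation acts on proteins, by phosphorylation and location, and the values here are transcript levels. Each is a normalized CPM, the reads of a gene scaled to the depth of its library and between libraries by the TMM method.

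Reads per library ranged from 21434437 to 28805205 in the larger experiment and from 22586580 to 33412986 in the other. The fewest reads behind any value of the 10 genes were the 78 reads of *ist-1* in *sod-1* replicate 2. The transcript of the mutated gene was lower in every mutant library than in every wild-type library for *clk-1*, *sod-1*, *prdx-2* and *sod-2*, but not for *isp-1*, *nuo-6* and *daf-2*. In the libraries labelled *ctl-1*, the *ctl-1* transcript was at 1.93 to 2.98 normalized CPM against 1.78 to 2.80 in wild type, while *ctl-3* was at 0.0323 to 0.0350 against 3.47 to 6.18, so the label was not borne out by its own gene. Marker genes of sperm, oocytes, germline, intestine, body muscle, neurons and hypodermis were detected in every group, with no marker at 0 throughout a group. Several libraries stood apart from their group for members of the pathway, namely *nuo-6* replicate 3, *clk-1* replicate 2 and *daf-2* replicate 6, and results that rest on them are given with and without them where that changed a call or moved a called value by over 1.5 times. Replicate 3 of *nuo-6* also had the fewest reads of the larger experiment, 21434437. Its 10 highest genes held 12.6% of its reads, the largest such share, and the part of this in its values was not tested.

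Levels of different genes can be compared only per length, here as normalized CPM per kb of exon in the 6 wild-type libraries of the larger experiment. The phosphatase gene *daf-18* was highest with 73.7 ± 26.0 (SD, n = 6), followed by *akt-1* with 54.6 ± 5.35 and *daf-16* with 45.1 ± 2.27. A middle group held *pqm-1* with 25.6 ± 4.92, *sgk-1* with 23.4 ± 3.01, *age-1* with 16.9 ± 3.21 and *daf-2* with 14.3 ± 2.41. The lowest were *akt-2* with 6.58 ± 1.33, *pdk-1* with 4.58 ± 0.577 and *ist-1* with 1.97 ± 0.418 per kb. The ranges of neighbours in this order overlapped between libraries, except between *daf-16* and *pqm-1*, between *daf-2* and *akt-2* and between *pdk-1* and *ist-1*. In *daf-2* worms *akt-2* reached 20.2 ± 3.43 and *akt-1* 103 ± 24.0 per kb, so that *akt-1* stayed the more abundant of the 2 AKT genes.

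**Figure D1:**
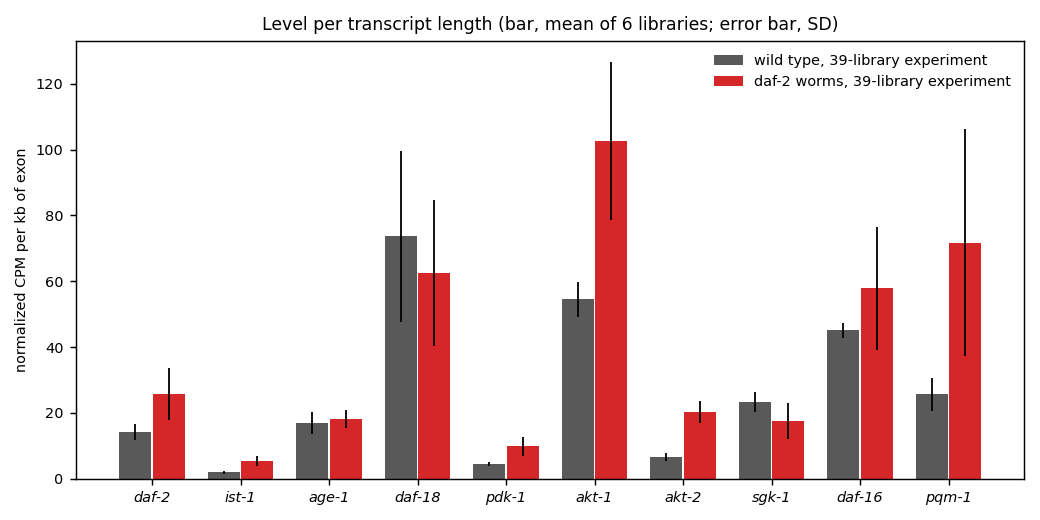
Mean level per transcript length (normalized CPM per kb of exon, y axis) of the 10 genes (x axis) in wild-type (grey) and *daf-2* (red) worms of the larger experiment, with error bars giving the SD of 6 libraries. In wild type the genes run from 73.7 for *daf-18* to 1.97 for *ist-1*.

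Against wild type, the transcripts of *daf-2*, *ist-1*, *pdk-1*, *akt-1*, *akt-2* and *pqm-1* were higher and that of *sgk-1* lower in *daf-2* worms. In *nuo-6* worms *ist-1*, *akt-2* and *pqm-1* were called higher, in *prdx-2* worms *daf-2*, *ist-1* and *akt-2*, and no member was called in the other 5 strains. A gene was called where limma gave a Benjamini-Hochberg adjusted p below 0.05 over all genes of the table, and differences are mutant minus wild type on the scale of log2(normalized CPM + 0.5). In *daf-2* worms 7 of the 10 genes were called, 6 higher and 1 lower, where 33.7% of all genes were called, 17.4% higher and 16.3% lower. In *nuo-6* worms 3 of 10 were called higher, where 36.4% of all genes were called and 22.5% were called higher. With 10 genes this count is too near both shares to set the members apart from the background. In *prdx-2* worms 3 were called higher, where 13% of all genes were called and 6.51% were called higher. The median log2 difference of the 10 genes was 0.85 in *daf-2* worms, 0.46 in *prdx-2* worms and 0.21 in *nuo-6* worms, beside medians over all genes of 0.01, -0.01 and 0.02.

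The count was 0 of 10 by limma and by edgeR in *clk-1*, *isp-1*, *sod-1*, *sod-2* and the libraries labelled *ctl-1*. The shares of all genes called by limma were 8.27%, 21.3%, 2.57%, 3.03% and 2.62% in the same order. At an unadjusted p below 0.05, 4 members differed in *isp-1* (*daf-2*, *pdk-1*, *ist-1* and *pqm-1*), 1 in each of *clk-1* and *sod-2* (*pqm-1*), and 0 in *sod-1* worms and in the libraries labelled *ctl-1*. The median log2 difference of the 10 genes was 0.23 in *isp-1*, 0.12 in *clk-1*, -0.05 in *sod-2*, -0.09 in *sod-1* and 0.25 in the libraries labelled *ctl-1*, beside medians over all genes of -0.01 to -0.02. Comparisons within the larger experiment share the same 6 wild-type libraries, so a high or low wild-type library moves all of them. Values of each gene in every library are shown in the plot of levels by library, and the differences in the plot of differences from wild type.

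**Figure D2:**
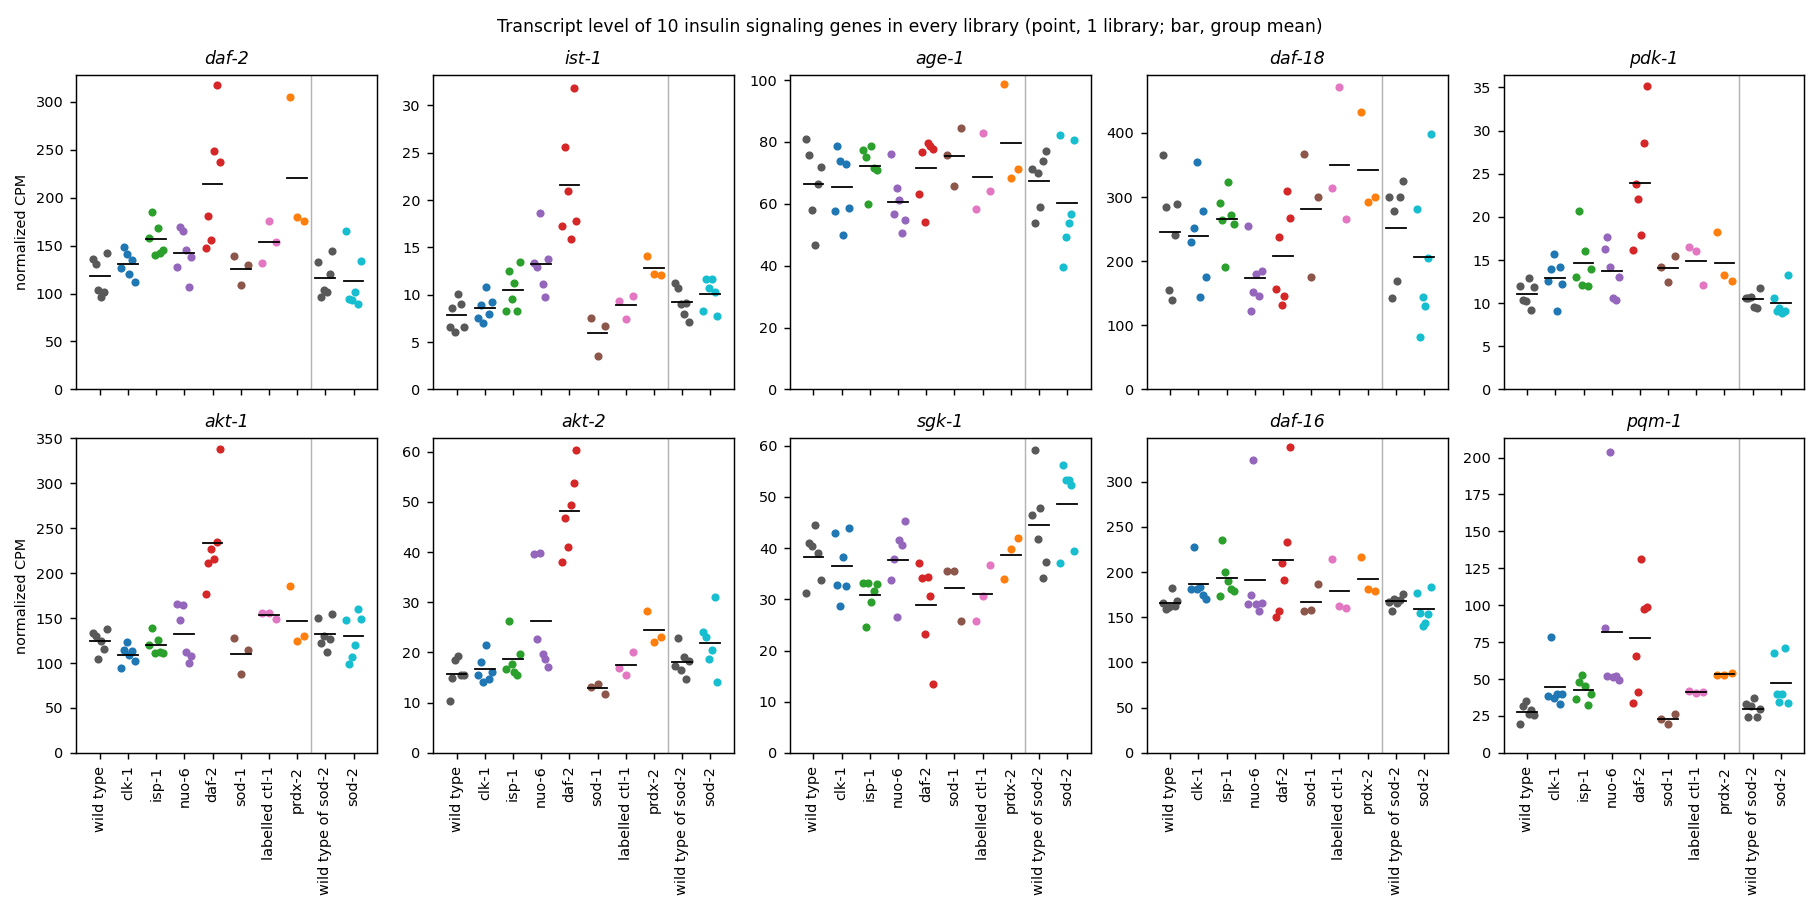
Level (normalized CPM, y axis, starting at 0) of the 10 genes in every library (points, in replicate order within a group) of the 10 groups (x axis), with a bar at each group mean. The grey line separates the 2 experiments. The 6 *daf-2* libraries lie above every wild-type library for *daf-2*, *ist-1*, *pdk-1*, *akt-1* and *akt-2*.

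**Figure D3:**
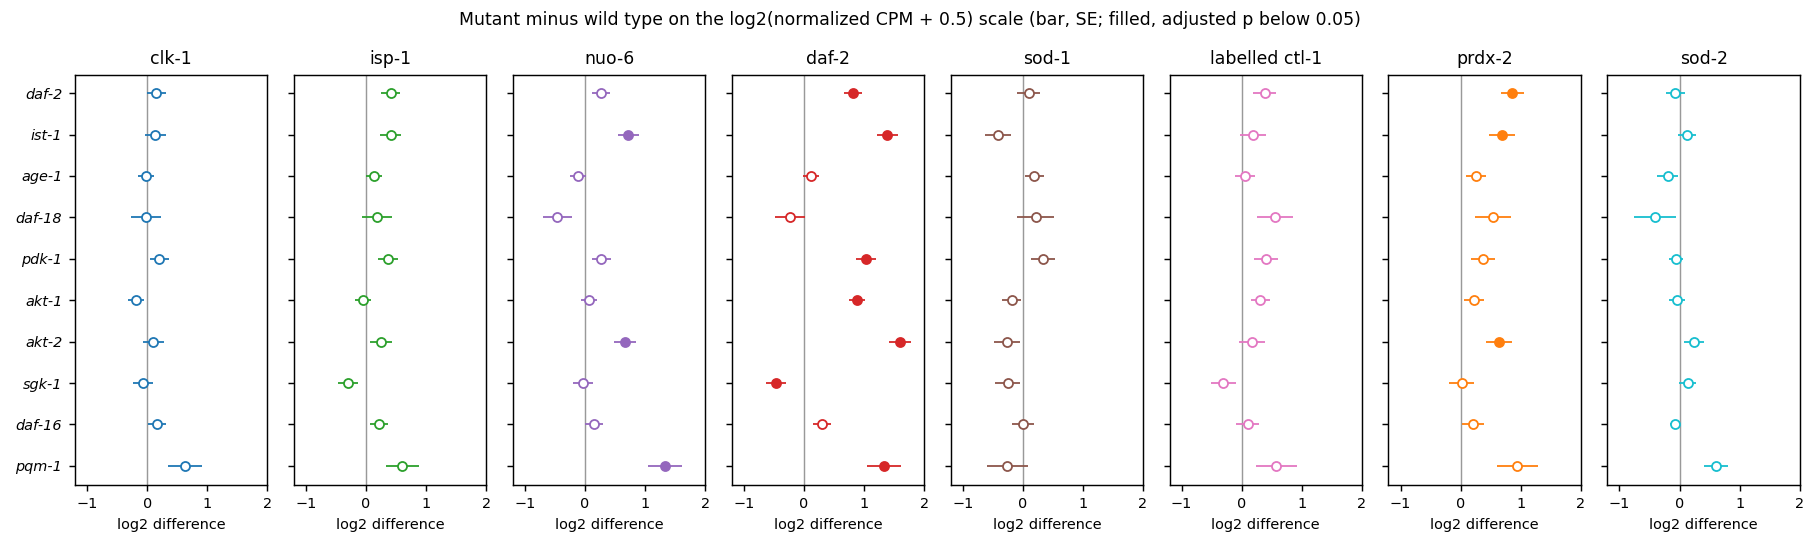
Difference of each mutant from its wild type (x axis, log2 scale with 0.5 added) for the 10 genes (y axis), in 8 panels, 1 per strain. Bars give the SE from limma and filled points mark an adjusted p below 0.05. Filled points stand in the *daf-2* (7), *nuo-6* (3) and *prdx-2* (3) panels.

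The gene *daf-2* (WBGene00000898, chromosome III, 2994514 to 3040846 on WBcel235) encodes the receptor itself. In wild type its lowest, median and highest level were 96.3, 117 and 141.98 normalized CPM. The *daf-2* worms, whose receptor carries the missense mutation, had 147, 209 and 317, and their lowest library was above the highest of wild type. Replicates 1 to 3 had 147, 180.4 and 156 and replicates 4 to 6 had 248, 317 and 237. The log2 difference was 0.82 ± 0.15 (SE, adjusted p = 8.43e-05, limma), a level 1.76 times that of wild type. In *prdx-2* worms the 3 libraries had 305, 180 and 175 normalized CPM, all above wild type, with a log2 difference of 0.86 ± 0.19 (adjusted p = 0.00220, limma). Replicate 1 carried part of that difference, since without it the difference was 0.60 and the call was lost (adjusted p = 0.0668, limma).

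In *isp-1* worms the receptor transcript had a median of 152, with 5 of 6 libraries above every wild-type library. The log2 difference of 0.41 ± 0.15 missed the threshold in the fit of all 39 libraries (adjusted p = 0.0539, limma) and passed it without wild-type replicate 7 or 12 or in a fit of these 12 libraries alone (adjusted p = 0.0448, 0.0380 and 0.0156). The receptor transcript was 0.40 ± 0.15 higher on the log2 scale in *daf-2* than in *isp-1* worms (adjusted p = 0.0372, limma), a call that 7 of 12 omissions of a library removed, and 0.55 and 0.66 higher in *daf-2* worms than in *nuo-6* and *clk-1* worms (adjusted p = 0.00557 and 0.00104).

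The insulin receptor substrate gene *ist-1* (WBGene00002163, chromosome X, 7126648 to 7139666) encodes an adaptor that links the receptor to downstream kinases. Its lowest, median and highest level were 6.03, 7.58 and 10.1 normalized CPM in wild type and 15.9, 19.4 and 31.8 in *daf-2* worms, with no overlap. The log2 difference in *daf-2* worms was 1.39 ± 0.18 (SE, adjusted p = 1.27e-07, limma), or 2.62 times the wild-type level. In *nuo-6* worms the levels were 9.71, 13.1 and 18.6, and 5 of 6 libraries were above all wild-type libraries (log2 difference 0.72 ± 0.18, adjusted p = 0.00143, limma). The 3 *prdx-2* libraries had 14.1, 12.2 and 12.1 normalized CPM, all above wild type. Their log2 difference was 0.69 ± 0.22 (adjusted p = 0.0281, limma), and the call was lost without wild-type replicate 9 or without any 1 *prdx-2* library (differences 0.63 to 0.73, adjusted p = 0.0643 to 0.137).

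The order of *ist-1* across strains was *daf-2*, *nuo-6*, *prdx-2*, *isp-1*, *ctl-1*-labelled, *clk-1*, wild type and *sod-1*, from a mean of 21.6 to 5.91 normalized CPM. The *daf-2* worms were above the *nuo-6* worms by 0.67 ± 0.18 on the log2 scale (adjusted p = 0.00344, limma), whereas *nuo-6* and *prdx-2* worms differed by 0.03 ± 0.22 (adjusted p = 0.947) and *nuo-6* and *isp-1* worms by 0.31 ± 0.18 (adjusted p = 0.208). The 3 *sod-1* libraries had 7.53, 3.54 and 6.67, and were below *isp-1* worms by 0.82 ± 0.22 (adjusted p = 0.00633) but not below wild type beyond the spread (log2 difference -0.41 ± 0.22, adjusted p = 0.402). Without *sod-1* replicate 2, the library at 3.54, the difference from wild type was -0.11 (adjusted p = 0.913) and that from *isp-1* worms was -0.52 and no longer called (adjusted p = 0.153).

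The lipid signal downstream of the receptor is made by the phosphoinositide 3-kinase AGE-1 and removed by the lipid phosphatase DAF-18. Neither gene was called in any of the 8 comparisons, by limma or in any alternative fit of these comparisons. For *age-1* (WBGene00000090, chromosome II, 11519328 to 11527054) the lowest, median and highest level were 46.7, 69.0 and 81.1 normalized CPM in wild type and 54.2, 77.2 and 79.7 in *daf-2* worms, and the groups overlapped throughout. Its log2 difference was 0.12 ± 0.13 in *daf-2* worms (adjusted p = 0.533, limma) and ran from -0.20 in *sod-2* to 0.26 in *prdx-2* worms. The *age-1* exons share 192 bases with B0334.10 on the opposite strand. The strand setting of the counting is not stated, so how reads there were assigned is not known. B0334.10 itself was not among the genes kept in the larger experiment.

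The phosphatase gene *daf-18* (WBGene00000913, chromosome IV, 420011 to 425177) varied most within wild type. Its wild-type libraries had a lowest, median and highest level of 139, 262 and 366 normalized CPM, a coefficient of variation of 35.3%, against 5.04% for *daf-16* in the same libraries. The *sod-2* libraries spread further, from 81.4 to 398. The log2 differences ran from -0.46 ± 0.25 in *nuo-6* (adjusted p = 0.144, limma) to 0.55 ± 0.30 in the libraries labelled *ctl-1* (adjusted p = 0.400). Against *nuo-6* worms, *daf-18* was higher by 1.01 in the libraries labelled *ctl-1* and by 0.99 in *prdx-2* worms (adjusted p = 0.0106 and 0.0150, limma). These calls were lost without *ctl-1*-labelled replicate 2 and without *prdx-2* replicate 1 (adjusted p = 0.110 and 0.123). The difference of *isp-1* from *nuo-6* worms, 0.64, was not called (adjusted p = 0.0672).

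The level of *daf-18* moved with that of oocyte and eggshell genes, a relation chosen after the values were seen. The summed level of 12 such genes (*rme-2*, *puf-5*, *cbd-1*, *chs-1*, *oma-1* and others) ranged from 2783 to 7369 normalized CPM in wild type, 1989 to 6343 in *daf-2* and 887 to 6889 in *sod-2* worms. After the mean of each group was subtracted on the log2 scale, *daf-18* and this sum had r = 0.93 and rho = 0.93 across the 39 libraries. Both had p = 1e-05, the smallest that 100000 permutations within groups can give (adjusted p = 0.000115 over 46 relations). Without the 2 libraries farthest from the median of the sum r was 0.93, and within the 5 groups of 6 libraries it ran from 0.90 in *nuo-6* to 0.99 in *daf-2* worms. The genes whose pattern was most like that of *daf-18* over the 39 libraries were *glp-1* (r = 0.97), *chs-1* (r = 0.97) and *zen-4* (r = 0.97), of which *glp-1* acts in germline stem cells and *chs-1* makes eggshell chitin. In whole worms, fewer cells of a type and less RNA per cell cannot be told apart.

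**Figure D4:**
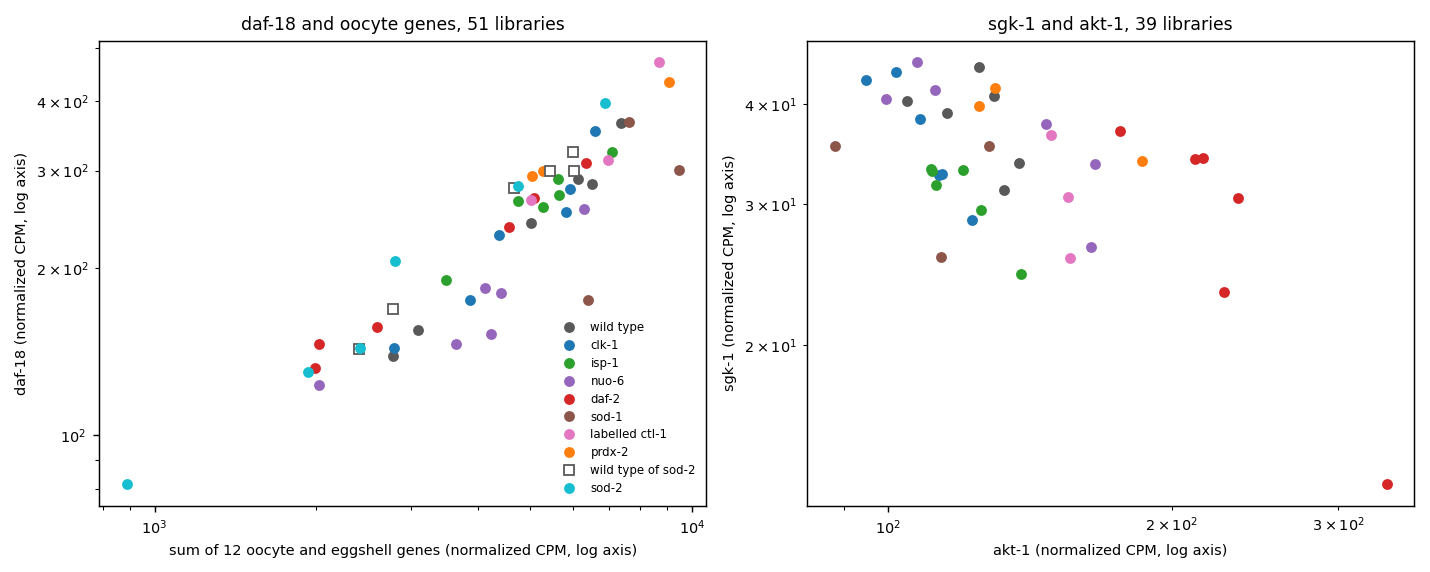
Left, *daf-18* (y axis) against the summed level of 12 oocyte and eggshell genes (x axis) in the 51 libraries. Right, *sgk-1* (y axis) against *akt-1* (x axis) in the 39 libraries of the larger experiment. Points are single libraries colored by group, in normalized CPM on log axes. The left points rise together, from the *sod-2* library with a *daf-18* level of 81.4 upwards, and the lowest right point is the *daf-2* library with 13.4 for *sgk-1*.

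The 3-phosphoinositide-dependent kinase gene *pdk-1* (WBGene00003965, chromosome X, 1321344 to 1327986) encodes the kinase that activates the AKT and SGK kinases. In wild type its lowest, median and highest level were 9.22, 11.1 and 12.96 normalized CPM, and in *daf-2* worms 16.2, 22.94 and 35.2, with no overlap. The log2 difference was 1.04 ± 0.16 (SE, adjusted p = 5.88e-06, limma), 2.05 times the wild-type level. The other 6 comparisons of the larger experiment gave positive differences from 0.20 in *clk-1* to 0.40 in the libraries labelled *ctl-1*, none of which passed the threshold (adjusted p = 0.110 to 0.517). The *daf-2* worms had more *pdk-1* transcript than the mitochondrial mutants, by 0.67 on the log2 scale against *isp-1*, 0.76 against *nuo-6* and 0.83 against *clk-1* (adjusted p = 0.00153, 0.000399 and 0.000148, limma).

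The kinase gene *akt-1* (WBGene00000102, chromosome V, 10248905 to 10252845) encodes the main kinase that phosphorylates DAF-16. Its lowest, median and highest level were 105, 127 and 138 normalized CPM in wild type and 176, 222 and 338 in *daf-2* worms, again without overlap. The log2 difference was 0.89 ± 0.13 (adjusted p = 2.11e-06, limma), and without *daf-2* replicate 6, the library at 338, it was 0.78 (adjusted p = 9.00e-06). Levels in the 3 mitochondrial mutants overlapped wild type, with log2 differences of 0.07 in *nuo-6*, -0.05 in *isp-1* and -0.18 in *clk-1*. The *nuo-6* libraries were split, with replicates 1 to 3 at 166, 147 and 164, above every wild-type library. Replicates 4 to 6 had 112, 99.6 and 107. The 3 libraries labelled *ctl-1* had 156, 155 and 149, all above wild type, yet the difference of 0.31 ± 0.16 did not pass (adjusted p = 0.374, limma). In that comparison 2 of the 10 genes, *akt-1* and *pqm-1*, had groups that did not overlap, and 10.7% of all genes did so.

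The other AKT gene, *akt-2* (WBGene00000103, chromosome X, 14147700 to 14152070), shares the work of AKT-1 on DAF-16. It had the largest log2 difference of the 10 genes in *daf-2* worms, 1.60 ± 0.18 (SE, adjusted p = 7.47e-09, limma), 3.03 times the wild-type level. Its lowest, median and highest level were 10.4, 15.5 and 19.3 normalized CPM in wild type and 38.0, 48.1 and 60.2 in *daf-2* worms. In all, 5 of the 10 genes (*daf-2*, *ist-1*, *pdk-1*, *akt-1* and *akt-2*) did not overlap between *daf-2* and wild type, where 14% of all genes did not overlap.

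In *nuo-6* worms *akt-2* had levels of 17.01, 21.2 and 39.8, with replicates 1 and 3 at 39.6 and 39.8 and the other 4 libraries from 17.01 to 22.7. The log2 difference was 0.66 ± 0.18 (adjusted p = 0.00313, limma), and it stayed called without any 1 library of the comparison, with adjusted p = 0.000920 to 0.0152. Each omission kept replicate 1 or 3, so these fits cannot show whether the call rests on that pair of libraries. The 3 *prdx-2* libraries had 28.3, 22.1 and 23.1, above all wild-type libraries, with a difference of 0.64 ± 0.22 close to the threshold (adjusted p = 0.0434, limma). That call was lost under 7 of 9 omissions of a single library, namely wild-type replicates 7, 8, 11 or 12 and each *prdx-2* library (adjusted p up to 0.220), and in a fit of these 9 libraries alone (adjusted p = 0.0558).

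The order of *akt-2* across strains began with *daf-2*, *nuo-6* and *prdx-2*, with means of 48.2, 26.3 and 24.5 normalized CPM. The *daf-2* worms were above the *nuo-6* worms by 0.93 ± 0.18 on the log2 scale (adjusted p = 7.74e-05, limma), and *nuo-6* worms were above *clk-1* worms by 0.57 ± 0.18 (adjusted p = 0.0198, up to 0.0822 without 1 library). The *nuo-6* and *prdx-2* worms differed by 0.02 ± 0.22 (adjusted p = 0.959), and *nuo-6* and *isp-1* worms by 0.42 ± 0.18 (adjusted p = 0.0944), short of the threshold.

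Markers of other tissues were read beside the strains where *akt-2* and *ist-1* were called. The summed level of 7 neuronal markers ranged from 295 to 431 normalized CPM in wild type, 404 to 607 in *daf-2*, 420.0 to 728 in *nuo-6* and 428 to 451 in *prdx-2* worms. Of the 7, 2, 3 and 0 were called higher in those strains, and the median log2 difference over the 7 was 0.05, 0.20 and -0.05. Of 8 germline markers, 3 were called lower in *daf-2*, 5 in *nuo-6* and 1 in *prdx-2* worms, and of 12 oocyte and eggshell markers, 2 were called lower in each of *daf-2* and *nuo-6* and 1 higher in *nuo-6* worms. Of 6 body muscle markers, 4 were called lower in *prdx-2* worms, with sums of 9180 to 9744 against 10501 to 18615 normalized CPM in wild type, and 2 higher in *nuo-6* worms. Hypodermis markers summed to 1728 to 1950 in *prdx-2* worms, below every wild-type library (2026 to 4674), with 0 of 6 called there and 1 higher in *nuo-6* worms. The median log2 difference over the 6 was -0.79 in *prdx-2*, -0.75 in *nuo-6* and 0.28 in *daf-2* worms, while the *nuo-6* sums ran from 3496 to 5733. Of 6 intestine markers 1 was called lower in *prdx-2* and 1 higher in *daf-2* worms, and of 24 sperm markers 2 were called higher and 1 lower in each of *daf-2* and *nuo-6* worms. Of all genes, 17.4% were called higher and 16.3% lower in *daf-2* worms, and 22.5% and 14% in *nuo-6* worms. In *prdx-2* worms 6.51% were called higher and 6.51% lower. The part of these marker differences in the levels of the pathway genes was not tested.

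The kinase gene *sgk-1* (WBGene00004789, chromosome X, 16254842 to 16262122) encodes a relative of the AKT kinases that is also activated by PDK-1. It was the 1 member called lower, in *daf-2* worms, with a lowest, median and highest level of 13.4, 32.4 and 37.0 normalized CPM against 31.2, 39.7 and 44.5 in wild type. The groups overlapped, with 3 of 6 *daf-2* libraries below every wild-type library, and the log2 difference was -0.47 ± 0.17 (SE, adjusted p = 0.0299, limma). Much of it came from *daf-2* replicate 6 at 13.4, since without that library the difference was -0.27 (adjusted p = 0.137). The call was also lost without wild-type replicates 8, 9 or 10 or *daf-2* replicate 3 (adjusted p = 0.0505 to 0.0680), by edgeR with TMM (adjusted p = 0.0510) and in a fit of these 12 libraries alone (adjusted p = 0.136). In *isp-1* worms the difference was -0.31 ± 0.17 (adjusted p = 0.205, limma), and it passed only in the fit of those 12 libraries alone (adjusted p = 0.0405). Between mutants, *sgk-1* was lower in *daf-2* than in *nuo-6* worms by 0.43 ± 0.17 (adjusted p = 0.0483, limma). That call was not made by edgeR, and it was lost without *daf-2* replicate 6 (a difference of -0.23, adjusted p = 0.200) or 3 or without any 1 *nuo-6* library but replicate 3.

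The transcription factor gene *daf-16* (WBGene00000912, chromosome I, 10750498 to 10776703) encodes the FOXO protein on which the pathway converges. It was the steadiest of the 10 in wild type, with a lowest, median and highest level of 159, 164 and 182 normalized CPM. In *daf-2* worms it had 151, 200.4 and 338, with 4 of 6 libraries above and the other 2 below every wild-type library. The log2 difference of 0.31 ± 0.15 was not called (adjusted p = 0.114, limma). It was 0.16 without *daf-2* replicate 6, the library at 338 (adjusted p = 0.385), and it was called without *daf-2* replicate 1 (0.39, adjusted p = 0.0432).

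In the mitochondrial mutants *daf-16* had medians of 186 in *isp-1*, 182 in *clk-1* and 166 in *nuo-6*, with log2 differences of 0.21, 0.16 and 0.15, none called. Single libraries stood far above their groups, *nuo-6* replicate 3 at 324 and *clk-1* replicate 2 at 228. Without them the differences were -0.01 in *nuo-6* (adjusted p = 0.968) and 0.10 in *clk-1* worms (adjusted p = 0.789, limma). The *daf-16* exons overlap the noncoding gene H36N01.5 on the opposite strand by 84 bases, and counts per gene do not separate the isoforms of *daf-16*.

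The zinc finger gene *pqm-1* (WBGene00004096, chromosome II, 11150391 to 11152595) encodes a transcription factor that leaves the nucleus when DAF-16 enters it and acts on genes that fall under weak insulin signaling. Its lowest, median and highest level were 19.4, 27.8 and 34.8 normalized CPM in wild type, 34.0, 81.5 and 131 in *daf-2* and 49.0, 52.0 and 204 in *nuo-6* worms. The *nuo-6* libraries all lay above wild type, the 1 gene of the 10 without overlap there, beside 14.5% of all genes, and in *daf-2* worms 5 of 6 did so. The log2 differences were 1.34 ± 0.28 in *daf-2* (adjusted p = 0.000311, limma) and 1.34 ± 0.28 in *nuo-6* worms (adjusted p = 0.000283). Replicate 3 of *nuo-6* was the library at 204, and without it the difference in *nuo-6* worms was 1.03 (adjusted p = 0.00109). The 2 strains differed from each other by 0.00 ± 0.28 on the log2 scale (adjusted p = 0.9996, limma), and without *nuo-6* replicate 3 *daf-2* worms were higher by 0.31 (adjusted p = 0.334).

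For *pqm-1* the 3 *prdx-2* libraries had 52.8, 52.5 and 54.2 normalized CPM, all above wild type, with a log2 difference of 0.94 ± 0.34 short of the threshold (adjusted p = 0.0636, limma) and past it in a fit of these 9 libraries alone (adjusted p = 0.00658). In *prdx-2* worms 4 of the 10 genes, *daf-2*, *ist-1*, *akt-2* and *pqm-1*, had groups without overlap, where 19.8% of all genes did. The libraries labelled *ctl-1* had 41.6, 40.8 and 40.9, also above wild type, with a difference of 0.58 ± 0.34 (adjusted p = 0.455). In *clk-1* and *isp-1* worms 5 of 6 libraries were above every wild-type library, with differences of 0.62 ± 0.28 (adjusted p = 0.185) and 0.61 ± 0.28 (adjusted p = 0.123). The *isp-1* difference was called in the fit of its 12 libraries alone (adjusted p = 0.00794), and the *clk-1* difference was 0.45 without replicate 2, the library at 78.4.

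In the *sod-2* experiment *pqm-1* had a lowest, median and highest level of 33.7, 39.6 and 70.9 normalized CPM against 24.1, 30.7 and 37.1 in its wild type. Its log2 difference of 0.60 ± 0.20 was the largest of the 10 genes there and was not called (adjusted p = 0.150, limma), with 4 of 6 *sod-2* libraries above all of its wild type. For *akt-2* the levels there were 14.2, 21.7 and 30.97 against 14.7, 17.8 and 22.8, with a log2 difference of 0.24 ± 0.17 (adjusted p = 0.461). In the 3 *sod-1* libraries *pqm-1* had 22.8, 19.7 and 26.5 normalized CPM, within the range of wild type (log2 difference -0.26 ± 0.34, adjusted p = 0.828). The *pqm-1* transcript was lower in *sod-1* than in *nuo-6* worms by 1.59 ± 0.34 on the log2 scale (adjusted p = 0.000458, limma). It was lower in *sod-1* than in *prdx-2* worms by 1.20 ± 0.40 (adjusted p = 0.0418), a call lost without any 1 of those 6 libraries.

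Between the 4 long-lived strains, 20 of 60 contrasts of a member between 2 strains were called. In *daf-2* worms the genes *daf-2*, *pdk-1*, *akt-1*, *akt-2* and *ist-1* were higher than in each mitochondrial mutant, with log2 differences from 0.40 for *daf-2* against *isp-1* to 1.4998 for *akt-2* against *clk-1*. The gene *pqm-1* was higher in *daf-2* than in *clk-1* (0.71 ± 0.28, adjusted p = 0.0436, limma) and *isp-1* worms (0.73 ± 0.28, adjusted p = 0.0380). In an alternative chosen after seeing the data, each library of a pair was left out in turn. The calls of *pdk-1*, *akt-1*, *akt-2* and *ist-1* in *daf-2* worms against all 3 mitochondrial mutants held throughout, as did those of *daf-2* against *clk-1* and *nuo-6*. The *daf-2* call against *isp-1* was lost without *isp-1* replicates 1, 3, 5 or 6 or *daf-2* replicates 4, 5 or 6 (adjusted p up to 0.124). The *pqm-1* call was lost under 9 of 12 omissions against *clk-1*, all but *clk-1* replicate 2 and *daf-2* replicates 1 and 3, and under 7 of 12 against *isp-1*, namely *isp-1* replicates 1, 4, 5 or 6 and *daf-2* replicates 4, 5 or 6. Of all genes, 37.8% were called between *daf-2* and *isp-1* (19.9% higher in *daf-2*), 37.1% between *daf-2* and *clk-1* (18.3% higher) and 31.7% between *daf-2* and *nuo-6* (13.3% higher and 18.4% lower). The pair *nuo-6* and *clk-1* had 2 called members, *akt-2* and *ist-1* (0.57 and 0.58 higher in *nuo-6*), where 20.1% of all genes were called and 12.9% were higher, and edgeR called *pqm-1* as well. The *akt-2* call was lost without *clk-1* replicate 3 or *nuo-6* replicate 1 or 3, and the *ist-1* call without *nuo-6* replicate 3. The pairs of *isp-1* with *clk-1* and of *nuo-6* with *isp-1* had 0 of 10 called by limma, where 3.24% and 17.2% of all genes were called. At an unadjusted p below 0.05 the counts were 0 and 3, and edgeR called 0 and 1 (*pqm-1*, higher in *nuo-6*).

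Within groups, several members moved together from library to library. After the group means were subtracted on the log2 scale, 20 of the 45 pairs of members had an adjusted permutation p below 0.05, 17 with a positive and 3 with a negative r, over 39 libraries. The share among pairs of other genes was not computed, so this count cannot be read as particular to the pathway. The closest were *age-1* with *daf-18* (r = 0.82, rho = 0.82), *pdk-1* with *akt-1* (r = 0.76, rho = 0.75) and *daf-2* with *age-1* (r = 0.70, rho = 0.72), each with p = 1e-05 and adjusted p = 0.000115 for both measures. Without the 2 farthest libraries these r were 0.78, 0.70 and 0.69.

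The 3 negative pairs each held *sgk-1*. Its r was -0.78 with *daf-16* (rho = -0.65), -0.75 with *akt-1* (rho = -0.70) and -0.66 with *pdk-1* (rho = -0.59), with permutation p = 5e-05, 2e-05 and 0.00021 for r (adjusted p = 0.000383, 0.000184 and 0.00107) and 6e-05, 2e-05 and 0.00062 for rho (adjusted p = 0.000345, 0.000184 and 0.00259). Without the 2 farthest libraries r was -0.62, -0.69 and -0.54. In *daf-2* replicate 6, *sgk-1* was lowest of all 39 libraries at 13.4 while *akt-1*, *daf-16* and *pdk-1* were at 338, 338 and 35.2 normalized CPM, each the highest of the 39. Libraries share their scaling and tissue composition across genes, and the part of these in the relations was not tested.

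The patterns most like those of the 3 members with the widest range of group means were looked up over the 39 libraries and 13865 genes. For *akt-2* they were *lin-59* (r = 0.92), *fkh-7* (r = 0.91) and R03H10.1 (r = 0.91). For *ist-1* the nearest gene was *akt-2* itself (r = 0.87), followed by C50F7.6 and *camt-1* (both r = 0.86), and for *pqm-1* they were Y15E3A.5 (r = 0.91), C32D5.7 (r = 0.91) and *daf-14* (r = 0.89). These r describe libraries that differ by strain, and they carry no test.

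Among other genes that act on the kinase branch, at most 1 was called in any comparison. Of 10 such genes (*aap-1*, *shc-1*, *pptr-1*, *rict-1*, *let-363*, *eak-3*, *eak-4*, *eak-6*, *eak-7* and *sdf-9*), 6 were in the table, and *eak-3*, *eak-4*, *eak-6* and *sdf-9* were not. The gene *rict-1*, which encodes a TORC2 subunit that acts upstream of SGK-1 and AKT, was called higher in *isp-1* (0.46 ± 0.13, adjusted p = 0.0138, limma), *daf-2* (0.46 ± 0.13, adjusted p = 0.00792) and *prdx-2* worms (0.67 ± 0.16, adjusted p = 0.00533), where 11%, 17.4% and 6.51% of all genes were called higher. The call in *daf-2* worms was lost in the fit of those 12 libraries alone. The gene *let-363*, which encodes the TOR kinase, was called lower in *sod-1* worms, at 149 ± 78.6 (SD, n = 3) against 226 ± 15.4 normalized CPM in wild type (n = 6), and 1.96% of all genes were called lower. The list held 0 calls there without *sod-1* replicate 2 or 3, by edgeR with RLE scaling and in the fit of those 9 libraries alone. It held 0 calls by limma and edgeR in *clk-1*, *nuo-6*, *sod-2* and the libraries labelled *ctl-1*, and 0, 0, 0 and 1 of the 6 had an unadjusted p below 0.05. Of all genes, limma called 8.27%, 36.4%, 3.03% and 2.62% in the same order.

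Of 19 regulators and partners of DAF-16, 8 were called in *nuo-6* worms (3 higher, 5 lower), 6 in *daf-2* worms (3 higher, 3 lower), 2 each in *isp-1* and *prdx-2* worms (all lower) and 1 in the libraries labelled *ctl-1* (lower). The shares in *nuo-6* and *daf-2* worms lay near the 36.4% and 33.7% of all genes called there, and the 3 higher in *nuo-6* worms stood beside 22.5% of all genes. Of all genes, 14% were called lower in *nuo-6*, 16.3% in *daf-2*, 10.3% in *isp-1*, 6.51% in *prdx-2* worms and 1.57% in the libraries labelled *ctl-1*, and the median log2 difference of the 19 genes was -0.03 in *nuo-6* and 0.02 in *daf-2* worms. The count in *nuo-6* worms was 4 in the fit of the 12 libraries alone, and leaving out 1 library gave 6 to 10 there, 4 to 8 in *daf-2* worms and 0 to 2 in *prdx-2* worms, with 0 without replicate 2 or 3 and 1 without replicate 1. The 1 call in the libraries labelled *ctl-1* was lost without their replicate 2 or 3. The arginine methyltransferase gene *prmt-1*, whose product methylates DAF-16 and blocks its phosphorylation by AKT, was called in 5 comparisons. Its wild-type level of 510.2 ± 41.9 normalized CPM (SD, n = 6) was 342 ± 25.9 in *nuo-6* and 363 ± 35.0 in *daf-2* worms, log2 differences of -0.57 and -0.49 (adjusted p = 8.38e-07 and 1.09e-05, limma). The 14-3-3 gene *par-5*, whose product binds phosphorylated DAF-16 in the cytoplasm, was lower in *isp-1*, *nuo-6*, *daf-2* and *prdx-2* worms, by 0.26 to 0.40 on the log2 scale.

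The importin gene *imb-2*, whose product carries DAF-16 into the nucleus, was lower in *nuo-6* (log2 difference -0.56 ± 0.10, adjusted p = 4.89e-05, limma) and *daf-2* worms (-0.53 ± 0.10, adjusted p = 0.000109). The gene *kri-1*, needed for DAF-16 to act in the intestine of worms without a germline, was higher in the same strains. It was at 17.2 ± 7.79 normalized CPM (SD, n = 6) in *nuo-6* and 6.25 ± 1.47 in *daf-2* worms against 3.87 ± 1.17 in wild type, log2 differences of 1.94 ± 0.22 (adjusted p = 9.82e-09, limma) and 0.64 ± 0.22 (adjusted p = 0.0200). No gene of this list was called in *clk-1*, *sod-1* or *sod-2* worms by limma or edgeR, and 1, 4 and 2 of the 19 had an unadjusted p below 0.05. Of all genes, limma called 8.27%, 2.57% and 3.03% in the same order. Without *sod-1* replicate 1 the count of called genes of the list was 2 in *sod-1* worms. Without *clk-1* replicate 2 or wild-type replicate 12 it was 1 in *clk-1* worms.

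Target genes of DAF-16 stand for the output of the pathway, and a list of 8 was followed in the 4 strains with antioxidant mutations (*acs-17*, *dod-3*, *ftn-1*, *gpd-2*, *icl-1*, *mtl-1*, *sod-3* and *sodh-1*). The study took these genes from a published meta-analysis of DAF-16 targets and measured them in its mitochondrial mutants. It had already named all but *acs-17* among the genes raised in common in the sequenced mitochondrial mutants. The counts for *prdx-2*, *sod-1* and the libraries labelled *ctl-1* share the wild-type libraries of that experiment, so they are not independent of this choice. In *sod-2* worms the study also reported higher expression of many DAF-16 targets, which depended on DAF-16. By sequencing it reported considerable overlap of the changes in *sod-2* and *daf-2* worms. Its quantitative PCR used samples separate from those sequenced. The counts here are from sequencing alone, at a threshold adjusted over all genes, and are not a repeat of those measurements. By limma 4 were called higher in *prdx-2* worms, where 6.51% of all genes were called higher, 2 in the libraries labelled *ctl-1* (1.05% of all genes), 1 in *sod-2* worms (2.34% of all genes) and 0 in *sod-1* worms. In *sod-1* worms edgeR also called 0. At an unadjusted p below 0.05, 5 of the 8 differed in *prdx-2* and 5 in *sod-2* worms. The same count was 3 in the libraries labelled *ctl-1* and 0 in *sod-1* worms. The median log2 difference of the 8 genes was 0.76 in *sod-2* and 0.02 in *sod-1* worms, beside -0.01 over all genes in each. The count of called genes in *prdx-2* worms ran from 2, without *prdx-2* replicate 1, to 5. In the libraries labelled *ctl-1* it ran from 0, without their replicate 2 or 3, to 3, and was 1 without wild-type replicate 9, 10 or 11. In *sod-2* worms it was 0 by edgeR and without any 1 of *sod-2* replicates 2, 4 and 5 or wild-type replicates 3 to 6, and 3 without *sod-2* replicate 6.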

How the data were processed

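Per the labels and the study's methods, libraries were made with a stranded mRNA kit (Kapa) and sequenced on a NextSeq 500, and the authors aligned reads to WBcel235 with STAR 2.5.2b, counted them per gene with Ensembl build 89 and processed them in edgeR 3.20.1. The deposited tables used here hold a signal per gene and library, TMM-normalized CPM after a filter whose rule is not stated. For 99.97% to 100% of values per library, the values were whole multiples of 1 read (tolerance 0.05). A further deposited table of counts for the 12 libraries of the *sod-2* experiment served as an alternative.

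Each mutant was compared with its own wild type in R 4.3.3 by the two-sided moderated test of limma 3.58.1, with its variance trend, on log2(value + 0.5), with all groups of a table in 1 fit and Benjamini-Hochberg adjustment over all genes (below 0.05 called). The 0.5 understates changes of low genes. Alternatives were pseudocounts of 0.1 and 1, a minimum mean of 1 normalized CPM, edgeR 4.0.16 on recovered reads (TMM or RLE), fits of 2 groups alone, the replicate number as a block and leaving out each library. Gene positions and exon lengths come from Ensembl 115 (WBcel235), which held 13955 of the 14033 gene IDs and 14518 of the 14596. Correlations used 100000 permutations within groups.

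Named genes are the 10 members, at most 4 per pathway list (those called in most comparisons) and the 3 genes most correlated with the 3 members of widest range, with *daf-18* added after its values were seen. Members and lists were chosen with earlier results of these data known. The tests were tried on simulated data with known differences.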

Additional observations from a re-analysis of the deposited data

Results flagged for a closer look

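In groups of 6 libraries, the highest or lowest value was compared with its nearest neighbour by Dixon's ratio of the gap to the range. Of 70 groups tested (10 genes in 7 groups), 5 exceeded the 95% limit, and chance flags about 1 in 20. Replicate 3 of *nuo-6* was far above the next library for *daf-16* (324.1 against 174 normalized CPM) and *pqm-1* (204.0 against 84.2). Replicate 2 of *clk-1* stood out for the same 2 genes, with *daf-16* at 227.6 against 183 and *pqm-1* at 78.4 against 39.99. Replicate 6 of *daf-2* stood out for *akt-1*, at 337.8 against 234.97 normalized CPM.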

How the results depend on the processing

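Of 1360 values of single members under alternatives, 1302 kept their direction and side of the threshold, 20 lost the call, 7 gained it and 31 changed sign without being called, each when 1 library was left out. Over the omissions those log2 differences ran from -0.121 to 0.0498 for *age-1*, -0.168 to 0.114 for *daf-18* and -0.00975 to 0.163 for *akt-2* in *clk-1*. They ran from -0.0941 to 0.0577 for *sgk-1* and -0.00867 to 0.201 for *daf-16* in *nuo-6*, from -0.0139 to 0.518 for *daf-18* and -0.0773 to 0.0485 for *daf-16* in *sod-1*, and from -0.0476 to 0.102 for *sgk-1* in *prdx-2* worms. They ran from -0.0955 to 0.155 for *age-1* and -0.0407 to 0.170 for *daf-16* in the libraries labelled *ctl-1*, and from -0.0992 to 0.0389 for *akt-1* in *sod-2* worms. The count of called members in *isp-1* worms was 0 in the fit of all 39 libraries and 3 in the fit of *isp-1* and wild type alone (*daf-2*, *pqm-1* and *sgk-1*), where fewer libraries share the estimate of spread. The fit of all 39 libraries uses 1 spread per gene for groups that differ in spread. For *pqm-1* the coefficient of variation ran from 1.03% in the libraries labelled *ctl-1* to 74.6% in *nuo-6* worms. It was 17.6% in *isp-1* worms and 19.2% in wild type. Leaving out 1 library gave 0 to 1 called members in *isp-1*, 0 to 3 in *prdx-2* (0 without *prdx-2* replicate 1, 1 without replicate 2 or 3), 6 to 8 in *daf-2* and 3 in *nuo-6* worms, 0 in the other 4 comparisons, and 16 to 22 of the contrasts between long-lived strains. The replicate numbers were not used as pairs in the main fits. For *sod-2* and its wild type the correlation of same-numbered deviations ran from -0.14 to 0.73. It was above 0.1 for 4 of 6 numbers, and 1 of 6 libraries correlated best with its own number. In both groups *daf-18* was lowest in replicate 2, at 81.4 in *sod-2* and 143 in wild type. It was highest in replicate 6, at 398 and 325 normalized CPM. Whether same-numbered libraries shared a batch is not stated, and the unpaired fit takes no account of it. With the number as a block 0 members were called in *sod-2* worms, as without it, and 16 contrasts between long-lived strains, against 17 in the same 33 mutant libraries without the block, a fit chosen after seeing the data. With 3 libraries per group, as in *prdx-2*, the number of libraries limits the precision.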
